A study of Rattus norvegicus with 16 samples.

Results

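The transcripts described here are those of 10 genes that mark stem cells of the intestinal crypt or are switched on by Wnt signalling, measured in the normal distal colon of 16 rats by hybridization to Agilent microarrays. Array probes were assigned to a gene when the RefSeq transcript given for the probe belongs to that rat gene. This rule found 12 of the 30367 probes of the array, and these 12 belong to 7 of the 10 genes: Lgr5 (2 probes), Ascl2 (1), Axin2 (1), Notum (1), Smoc2 (2), Myc (1) and Cd44 (4). No probe was assigned to Nkd1, Lrig1 or Sox9, which are not analysed here. Of the 7 genes, 6 had a probe well above background on all 16 arrays; Notum was well above background on 2 arrays.

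All rats were male (ACIxF344)F1 animals sampled at 97 days of age. There were 4 groups of 4 rats: untreated wildtype, DSS-treated wildtype, untreated Pirc/+ and DSS-treated Pirc/+. Pirc is a germline nonsense allele of Apc, carried here with 1 wildtype copy, and predisposes rats to colonic adenomas; the single Apc probe does not distinguish the alleles, so it does not check the genotype labels. DSS is dextran sodium sulfate, a polymer that injures the colonic epithelium and causes colitis, and was given at 4% in the drinking water from day 40 to 47 and again from day 54 to 61. The question is how the levels of these transcripts differ with the Pirc allele, with earlier DSS, and with both.

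In the crypt, Wnt ligands keep the stem cells at the base dividing. Ligand binding inactivates a complex that contains the Apc and Axin proteins, beta-catenin then accumulates, and with TCF/LEF factors it activates target genes, some of which (Axin2, Notum, Nkd1) encode inhibitors that feed back on the pathway. Loss of Apc function leaves beta-catenin stable without a ligand, which is the usual first step to a colonic adenoma. A level below is the log2 signal of a probe minus the log2 of the 75th percentile of its array, so that 0 is the brightness of that percentile and a difference of 1 is a factor of 2. Levels of different probes are not comparable with each other, only levels of 1 probe across rats. Differences were tested with limma over all 30367 probes, and a gene is called enhanced or diminished where the Benjamini-Hochberg adjusted p was 0.05 or less. Each gene is represented by its probe of highest mean level, with the other probes given beside it.

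Upstream sequences were found in RefSeq (assembly GRCr8) for 5 of the 10 genes. Those of Axin2, Cd44 and Ascl2, all enhanced in Pirc among DSS-treated rats, are shown because the results turn on these genes, each as the 250 bases before the annotated start on the strand of the gene. Capitals mark the word CTTTGAA and the words that end in AT, TA or TT in place of AA, searched on both strands, which are core letters that TCF/LEF factors prefer. None of these words can overlap another on the same strand. Axin2 lies at chr10:94398535-94398784 on the plus strand, Cd44 at chr3:109699425-109699674 on the minus strand and Ascl2 at chr1:207580857-207581106 on the minus strand.
Axin2: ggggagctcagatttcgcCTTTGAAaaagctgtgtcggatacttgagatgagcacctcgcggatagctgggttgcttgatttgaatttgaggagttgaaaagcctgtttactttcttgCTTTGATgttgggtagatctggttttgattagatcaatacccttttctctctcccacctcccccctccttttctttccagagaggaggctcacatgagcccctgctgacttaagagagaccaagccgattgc
Cd44: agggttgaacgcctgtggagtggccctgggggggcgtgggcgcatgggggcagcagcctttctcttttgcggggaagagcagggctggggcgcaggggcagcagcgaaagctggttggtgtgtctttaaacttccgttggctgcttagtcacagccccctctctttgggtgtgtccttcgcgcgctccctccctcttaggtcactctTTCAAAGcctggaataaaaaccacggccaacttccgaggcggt
Ascl2: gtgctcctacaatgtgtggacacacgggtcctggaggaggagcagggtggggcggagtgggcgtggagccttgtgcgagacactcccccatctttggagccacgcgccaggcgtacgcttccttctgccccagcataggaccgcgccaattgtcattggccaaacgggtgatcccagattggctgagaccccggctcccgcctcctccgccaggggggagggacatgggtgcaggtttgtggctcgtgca
The Axin2 stretch holds 2 of the words, CTTTGAA starting 232 bases and CTTTGAT starting 132 bases before the start. Cd44 holds 1, read here as its reverse complement TTCAAAG 43 bases before the start, and Ascl2 holds none (0). The other sequences found were those of Nkd1, which holds CTTTGAT starting 141 bases before the start, and Lrig1, which holds none (0). Neither of these genes had a probe. Myc, also enhanced in Pirc among DSS-treated rats, had no sequence to search. Among all 33469 RefSeq promoters of this length, 14.9% hold at least 1 of the words and 1.73% hold at least 2. These are matches of letters; binding was not measured.

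Several facts of the arrays bear on what follows. The arrays lie 8 to a slide on 2 slides, each slide with 2 rats of every group, and each group occupies a single array column, so an effect of column cannot be told apart from one of group. By correlation over all probes, 14 of the 16 arrays were nearest to an array of their own group. Untreated Pirc rat 23 and DSS-treated wildtype rat 26 were both nearest to untreated wildtype rat 25. Wildtype rats 25 and 26 also had the highest mean level of the 5 smooth muscle genes examined, 2.14 and 2.71 on a log2 scale centred on the mean of all rats, where the other 14 rats ranged from -0.93 to 1.28. Leaving out rats 25 and 26 together changed no count of the 7 genes in the 7 comparisons made.

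Between DSS-treated Pirc and DSS-treated wildtype rats, Ascl2, Axin2, Myc and Cd44 were enhanced in Pirc rats, which is 4 of the 7 genes, and none was diminished (0). Of all probes tested, 9.47% were enhanced in this comparison and 18.2% changed in either direction. The median difference of the 7 genes was 1.24, against -0.11 over all probes. In the same 4 genes every DSS-treated Pirc rat lay above every DSS-treated wildtype rat, a separation seen in 9.62% of all probes. Between untreated Pirc and untreated wildtype rats none of the 7 genes passed the limma threshold (0 of 7, median difference 0.26); there no probe of the array passed it (0%), and 10.2% had an unadjusted p under 0.05. With the Pirc effect averaged over both treatments, 5 of the 7 were enhanced (Ascl2, Axin2, Smoc2, Myc and Cd44; median difference 0.75), beside 9.26% of all probes enhanced and 17.5% changed. These comparisons share rats and are not independent of each other. The genes were chosen with earlier results of these data known, so the shares of all probes stand beside the counts as a description and not a test.

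**Figure D1:**
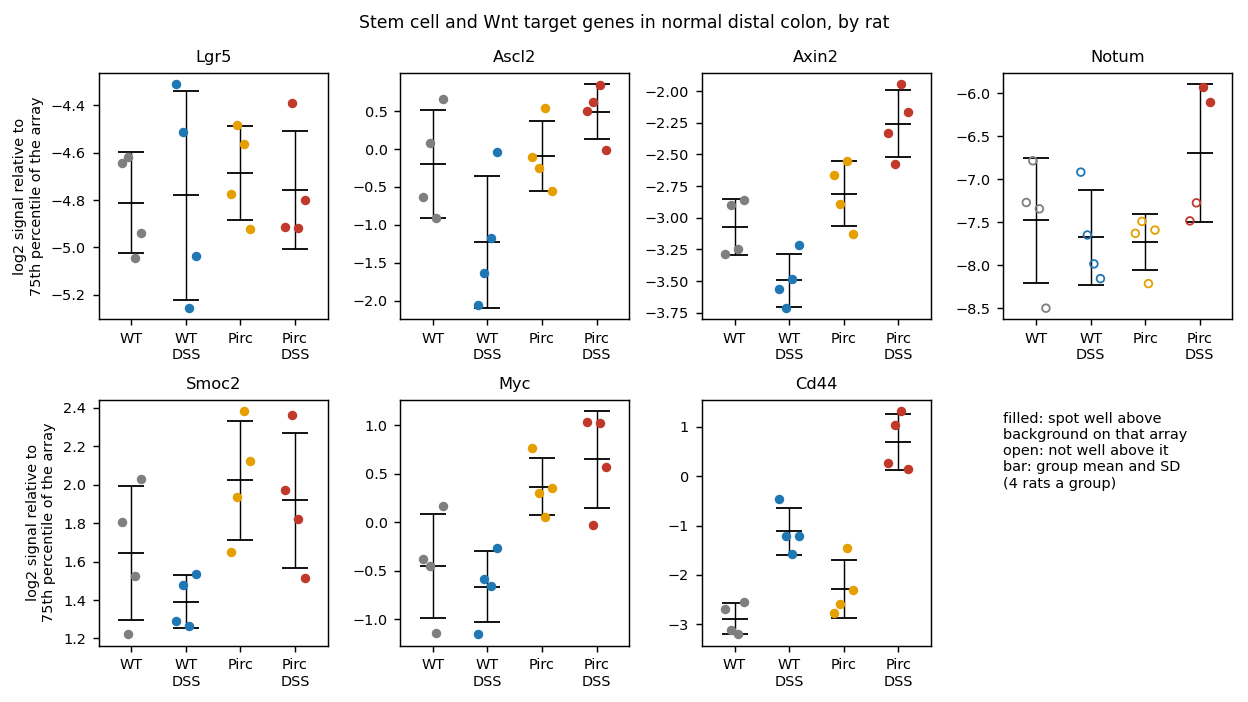
Level of the representative probe of each of the 7 measured genes in each rat. The y axis is the log2 signal relative to the 75th percentile of the array, with its own range in every panel; the x axis gives the 4 groups (WT, wildtype), filled points are well above background, open points are not, and the bars give the group mean and SD of 4 rats. Ascl2, Axin2, Myc and Cd44 in DSS-treated Pirc rats lay above all DSS-treated wildtype rats, whereas the 4 groups of Lgr5 overlapped.

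Lgr5 encodes the receptor for R-spondins that marks the dividing stem cells of the crypt base, and its 2 probes did not give the same result. The brighter probe (A_64_P102796), which was well above background on all 16 arrays, passed the threshold in no comparison. Its levels were -4.64, -4.62, -5.04 and -4.94 in untreated wildtype rats 13, 17, 21 and 25, and -4.31, -4.51, -5.26 and -5.04 in DSS-treated wildtype rats 14, 18, 22 and 26. In untreated Pirc rats 11, 15, 19 and 23 they were -4.77, -4.48, -4.56 and -4.92, and in DSS-treated Pirc rats 12, 16, 20 and 24 they were -4.91, -4.39, -4.92 and -4.80. All groups overlapped. The difference between Pirc and wildtype rats given DSS was 0.02 with a 95% interval from -0.42 to 0.46 (adjusted p = 0.95), and that between DSS-treated and untreated wildtype rats was 0.03, from -0.41 to 0.47 (adjusted p = 0.953).

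The dimmer Lgr5 probe (A_64_P003572) was well above background on 11 of 16 arrays and on none (0) of the 4 arrays of DSS-treated wildtype rats. In wildtype rats its levels were -6.68, -6.07, -6.35 and -6.10 untreated and -8.29, -8.63, -8.71 and -7.48 after DSS, in the order of rats given above. In Pirc rats they were -6.84, -6.18, -5.40 and -7.54 untreated and -6.84, -5.63, -5.27 and -6.40 after DSS. The 4 DSS-treated wildtype rats were below all untreated wildtype and all DSS-treated Pirc rats, and untreated Pirc rat 23 was the other low value. Of all probes, 4.44% were lower without overlap in DSS-treated than in untreated wildtype rats. A further comparison, DSS-treated Pirc above DSS-treated wildtype rats without overlap, held for 9.62% of all probes. By this probe the measured Lgr5 difference was -1.98 for DSS in wildtype rats (adjusted p = 0.021). It was 2.24 for Pirc over wildtype rats given DSS (adjusted p = 0.00425). With DSS-treated wildtype values below the floor raised to it, Lgr5 was 2.60-fold lower and 3.13-fold higher in these comparisons. These folds are estimates from group means and not lower limits. The floor of an array was the lowest signal among its probes well above background, and values above the floor were kept as measured. Over both treatments the probe was higher in Pirc rats by 1.03 (SE 0.31, adjusted p = 0.0319), a call that was lost with quantile normalization (0.97, adjusted p = 0.0535) and with normexp (-0.022). In Pirc rats the DSS difference was 0.46 (adjusted p = 0.579), in untreated rats the Pirc difference was -0.19 (adjusted p = 0.911), and the DSS effects of the genotypes differed by 2.43 (SE 0.61, adjusted p = 0.199), which did not pass. On the 2 slides the differences were -2.09 and -1.87 for DSS in wildtype rats, and 2.23 and 2.26 for Pirc in DSS-treated rats. With normexp background correction in place of the scanner's own subtraction they were -0.13 (adjusted p = 0.786) and 0.18 (adjusted p = 0.543), and neither passed. The offset of 50 added with normexp shrinks the differences of probes this dim. The loss of the calls there therefore does not decide whether they depend on the background correction. Where the probes of a gene were averaged, the Lgr5 differences were -0.97 (adjusted p = 0.0429) and 1.13 (adjusted p = 0.00887).

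Ascl2, a transcription factor and Wnt target that maintains the identity of Lgr5-positive stem cells, was highest in DSS-treated Pirc rats. In wildtype rats its levels were -0.64, 0.08, -0.90 and 0.66 untreated (rats 13, 17, 21 and 25) and -2.06, -1.63, -1.18 and -0.03 after DSS (rats 14, 18, 22 and 26). In Pirc rats they were -0.11, -0.25, 0.55 and -0.55 untreated (rats 11, 15, 19 and 23) and 0.50, 0.62, 0.85 and -0.01 after DSS (rats 12, 16, 20 and 24). The highest wildtype value of each treatment was that of rats 25 and 26, the rats with the high smooth muscle genes, whose part in these levels was not tested. Among DSS-treated rats the Pirc level was 1.72 higher (SE 0.42, 95% interval 0.83 to 2.60, 3.28-fold; adjusted p = 0.012). The difference was 2.41 on slide 1 and 1.02 on slide 2. Each of the 4 sets of a slide and an array row holds 1 rat of every group, and within these sets the Pirc rat was above the wildtype rat by 2.56 (rats 12 and 14), 2.25 (rats 16 and 18), 2.03 (rats 20 and 22) and 0.022 (rats 24 and 26). With the 4 sets as a block the adjusted p was 0.0211.

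In the order of mean levels of Ascl2, DSS-treated wildtype (-1.23 ± 0.87, SD, n = 4), untreated wildtype (-0.20 ± 0.71), untreated Pirc (-0.09 ± 0.46) and DSS-treated Pirc (0.49 ± 0.36), no neighbours differed past the threshold. The adjusted p was 0.214 for DSS in wildtype rats (-1.03), 0.952 for Pirc in untreated rats (0.11) and 0.428 for DSS in Pirc rats (0.58). The Pirc difference in untreated rats varied in sign over the 4 sets. It was 0.53 (rats 11 and 13), -0.33 (rats 15 and 17), 1.45 (rats 19 and 21) and -1.21 (rats 23 and 25). Without rat 26 the DSS difference in wildtype rats was -1.42 (adjusted p = 0.037), a call made by leaving out that rat. The DSS effects of the genotypes were 1.61 apart (SE 0.59) at an adjusted p of 0.352. Over both treatments Ascl2 was enhanced in Pirc rats by 0.91 (SE 0.29, adjusted p = 0.0452), a call that was lost in 12 of the 16 fits without 1 rat and with the 4 sets as a block (adjusted p = 0.0613).

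Smoc2, a secreted matrix protein that is found in the stem cell signature and also in fibroblasts, differed by -0.18 with DSS over both genotypes (SE 0.15, adjusted p = 0.507), which did not pass. Its brighter probe (A_42_P812805) read 1.81, 1.22, 1.52 and 2.03 in untreated wildtype and 1.29, 1.48, 1.26 and 1.54 in DSS-treated wildtype rats. Pirc rats read 1.65, 1.94, 2.39 and 2.12 untreated and 1.97, 2.36, 1.82 and 1.51 after DSS. The groups overlapped, with Pirc rats toward the upper end. Averaged over both treatments the Pirc level was 0.45 higher (SE 0.15, 1.37-fold, adjusted p = 0.0496), with 0.38 in untreated (adjusted p = 0.577) and 0.53 in DSS-treated rats (adjusted p = 0.0994). The second probe (A_64_P121722) gave 0.37 (adjusted p = 0.0888), which did not pass, and the call of the first was lost with slide as a block (adjusted p = 0.0557) and with the 4 sets of slide and row as a block (adjusted p = 0.0822).

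Axin2, the feedback inhibitor of the beta-catenin destruction complex and a widely used readout of Wnt signalling, was enhanced in Pirc rats given DSS and over both treatments. Its levels in wildtype rats were -3.29, -2.90, -3.24 and -2.86 untreated and -3.56, -3.71, -3.49 and -3.21 after DSS. In Pirc rats they were -2.66, -2.89, -2.55 and -3.13 untreated and -2.33, -2.58, -1.95 and -2.17 after DSS. The 4 DSS-treated Pirc rats were above all 8 wildtype rats, treated or not. Among DSS-treated rats Axin2 was enhanced in Pirc by 1.24 (SE 0.18, 95% interval 0.86 to 1.62, 2.36-fold; adjusted p = 0.000837), with 1.19 and 1.29 on the 2 slides and 1.39 and 1.09 in the 2 array rows. Over both treatments the difference was 0.75 (SE 0.12, adjusted p = 0.00207).

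The mean Axin2 levels rose in the order DSS-treated wildtype (-3.49 ± 0.21, SD, n = 4), untreated wildtype (-3.07 ± 0.22), untreated Pirc (-2.81 ± 0.26) and DSS-treated Pirc (-2.26 ± 0.27). Of the neighbours in this order only the last pair passed: DSS enhanced Axin2 in Pirc rats by 0.55 (SE 0.18, 1.47-fold, adjusted p = 0.0476), although the ranges of the groups overlapped. That call was lost in 13 of the 16 fits without 1 rat and under 4 other settings, among them the 4 sets of slide and row as a block (adjusted p = 0.066). The Pirc difference was 0.26 in untreated rats (adjusted p = 0.648). In wildtype rats the DSS difference was -0.42 (SE 0.18, adjusted p = 0.233), opposite in sign to that in Pirc rats, and the DSS effects differed by 0.97 (SE 0.25, 95% interval 0.44 to 1.51) at an adjusted p of 0.203 over all probes, where 0.0428% of the probes passed.

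Notum, a secreted enzyme that removes the lipid group Wnt ligands need, was near background. Its probe was well above background only in DSS-treated Pirc rats 20 and 24, at -5.92 and -6.10, while rats 12 and 16 of the same group were at -7.48 and -7.27. The other 12 rats ranged from -8.50 to -6.78 and none (0 of 12) was well above background. The measured difference was 1.04 for DSS in Pirc rats (adjusted p = 0.113) and 0.98 for Pirc in DSS-treated rats (adjusted p = 0.115), and neither passed. Most of the values behind these differences are not well above background. Both rats with a signal lie on slide 2, where the difference from DSS-treated wildtype rats was 2.06 against -0.10 on slide 1. The difference between the DSS effects was 1.24 (adjusted p = 0.472).

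**Figure D2:**
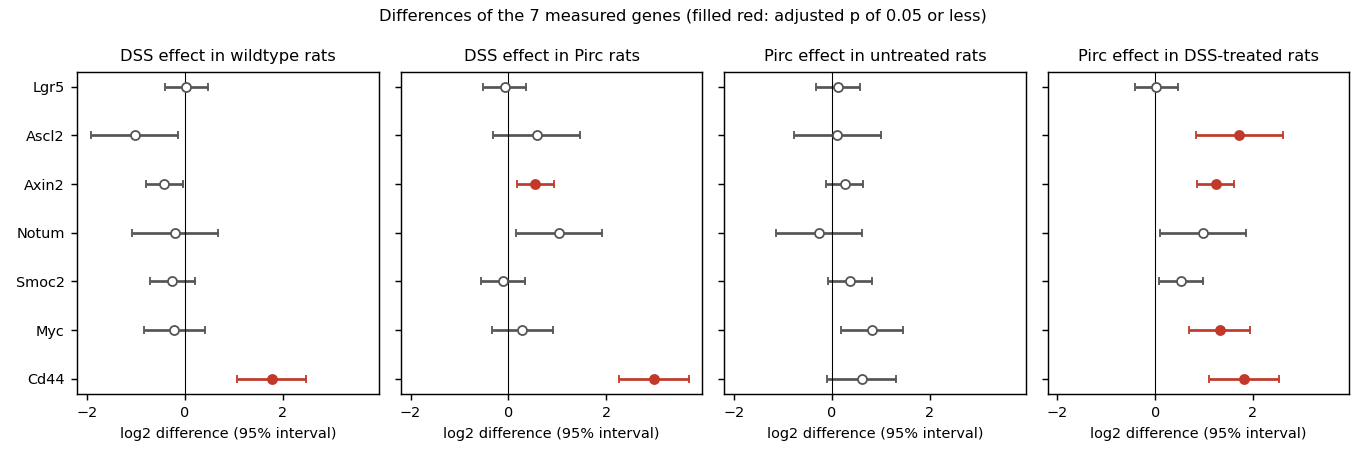
Differences of the representative probe of each measured gene in the 4 comparisons of single groups, on a log2 scale, with 95% intervals from limma; filled red points had an adjusted p of 0.05 or less over all probes. In untreated rats no gene passed, and in DSS-treated rats Ascl2, Axin2, Myc and Cd44 were enhanced in Pirc by 1.72, 1.24, 1.32 and 1.81.

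Myc, the growth-promoting transcription factor that beta-catenin activates in colonic tumors, was measured by 1 probe printed 10 times on each array, whose spots had an SD of 0.03 to 0.07 within an array. In wildtype rats the levels were -0.38, -0.46, -1.15 and 0.16 untreated and -1.16, -0.58, -0.66 and -0.27 after DSS. In Pirc rats they were 0.77, 0.30, 0.05 and 0.35 untreated and 1.04, -0.03, 1.02 and 0.57 after DSS. All DSS-treated Pirc rats were above all DSS-treated wildtype rats, and among untreated rats only wildtype rat 25 reached into the Pirc range. Myc was enhanced in Pirc by 1.32 among DSS-treated rats (SE 0.29, 2.49-fold, adjusted p = 0.00805) and by 1.07 over both treatments (SE 0.21, adjusted p = 0.00422). In untreated rats the difference was 0.82 (SE 0.29, 95% interval 0.19 to 1.45) at an adjusted p of 0.345.

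DSS itself did not change Myc past the threshold in either genotype (0.28 in Pirc rats, adjusted p = 0.622; -0.21 in wildtype rats, adjusted p = 0.809). The DSS effects differed by 0.50 (adjusted p = 0.713). The order of the group means was the same as for Ascl2 and Axin2, from -0.67 ± 0.37 (SD, n = 4) in DSS-treated wildtype through -0.45 ± 0.54 and 0.37 ± 0.30 to 0.65 ± 0.50 in DSS-treated Pirc rats, and no neighbours in it differed past the threshold. Among DSS-treated rats the difference was 1.94 in array row 1 and 0.70 in row 2.

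Cd44, a receptor for hyaluronan that is a Wnt target in the crypt and is also abundant on leukocytes, fibroblasts and basal squamous cells, was the one gene of the 7 that DSS enhanced in both genotypes. Its brightest probe (A_64_P080817) read -2.70, -3.12, -3.21 and -2.55 in untreated wildtype and -0.46, -1.21, -1.58 and -1.22 in DSS-treated wildtype rats. Pirc rats read -2.77, -2.60, -1.46 and -2.31 untreated and 0.26, 1.03, 1.33 and 0.16 after DSS. Within each genotype the treated rats did not overlap the untreated ones, and the DSS-treated Pirc rats were above all other rats. DSS enhanced Cd44 by 2.98 in Pirc rats (SE 0.33, 7.90-fold, adjusted p = 0.000121) and by 1.78 in wildtype rats (SE 0.33, 3.43-fold, adjusted p = 0.00959). With DSS averaged over the genotypes (2.38, adjusted p = 2.12e-05), Cd44 was the only 1 of the 7 genes past the threshold, beside 10.2% of all probes enhanced and 17.2% changed. In Pirc rats alone DSS enhanced 2 of the 7 (Cd44 and Axin2), beside 8.14% of all probes enhanced and 14.7% changed. In wildtype rats alone it enhanced 1 of 7 (Cd44), beside 2.94% enhanced and 3.84% changed. A gap between treated and untreated rats like that of Cd44 was seen in 8.88% of all probes in Pirc and 8% in wildtype rats.

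The Pirc difference of Cd44 was 1.81 among DSS-treated rats (SE 0.33, 3.51-fold, adjusted p = 0.00328), 1.21 over both treatments (adjusted p = 0.0042) and 0.61 in untreated rats (adjusted p = 0.566). The DSS effects of the genotypes were 1.21 apart (SE 0.47), which did not pass (adjusted p = 0.387). The mean levels were -2.89 ± 0.32 (SD, n = 4) in untreated wildtype, -2.29 ± 0.58 in untreated Pirc, -1.12 ± 0.47 in DSS-treated wildtype and 0.70 ± 0.58 in DSS-treated Pirc rats, and the ranges of the middle pair overlapped.

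The 4 Cd44 probes differed in size of change. Probe A_64_P280765 ranged from -8.23 to -7.68 in untreated wildtype rats (0 of 4 well above background), -6.55 to -6.02 in DSS-treated wildtype, -7.99 to -6.34 in untreated Pirc (2 of 4) and -4.64 to -3.39 in DSS-treated Pirc rats. DSS enhanced it by 1.71 in wildtype rats (3.27-fold as measured, adjusted p = 0.0161), a size that rests on untreated values not well above background. With quantile normalization that difference was 1.27 and not past (adjusted p = 0.101). DSS enhanced this probe by 3.49 in Pirc rats (adjusted p = 6.52e-05), and it was enhanced by 2.22 in Pirc among DSS-treated rats (adjusted p = 0.00165). Probe A_64_P130999 was well above background in all DSS-treated Pirc rats and in 1 of the other 12. By that probe the measured Cd44 difference for DSS in Pirc rats was 4.25 (adjusted p = 0.000103). With untreated Pirc values below the floor raised to it, the rise by that probe was 13.9-fold, an estimate and not a lower limit. Among DSS-treated wildtype rats 1 of 4 was well above background, so the sizes of its differences from them are not well measured: 1.90 for DSS in wildtype rats (adjusted p = 0.0332) and 2.42 for Pirc among DSS-treated rats (adjusted p = 0.00383). With normexp background correction the wildtype DSS differences of these dimmer probes were 0.41 (A_64_P280765, adjusted p = 0.537) and 0.40 (A_64_P130999, adjusted p = 0.608). The Pirc difference of A_64_P130999 among DSS-treated rats was then 0.53 (adjusted p = 0.168), and none of these passed. The normexp offset shrinks differences of dim probes, so this loss does not decide the calls. The fourth probe (A_64_P130995), well above background in all rats, gave 0.73 for DSS in Pirc rats (adjusted p = 0.0851), 0.10 for DSS in wildtype rats (adjusted p = 0.884) and 0.43 for Pirc in DSS-treated rats (adjusted p = 0.297), none past the threshold. All 4 are assigned to the same transcript, and which exons they lie in was not used here.

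**Figure D3:**
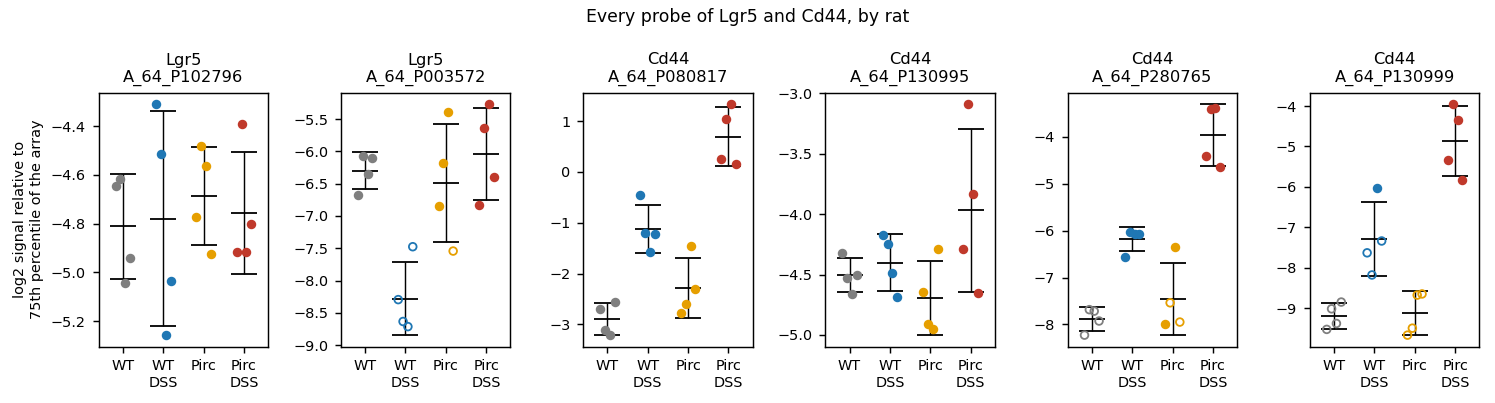
Levels of both Lgr5 probes and all 4 Cd44 probes in each rat; the y axis is the log2 level defined as in the plot of levels by rat, with a separate range in each panel; points, fills and bars are also as there. The dimmer Lgr5 probe was not well above background in any DSS-treated wildtype rat, and 3 of the 4 Cd44 probes were highest in all DSS-treated Pirc rats.

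In bulk tissue fewer cells of a type and less RNA per cell cannot be told apart, so levels of other cell types' markers stand beside these results. The 8 epithelial genes measured, all well above background on all 16 arrays, had mean centred levels of -0.22 to 0.27 over the 16 rats. These levels were -0.22 to -0.03 in DSS-treated Pirc and 0.09 to 0.27 in DSS-treated wildtype rats, so these groups did not overlap. In untreated rats they were -0.15 to 0.00 in Pirc and -0.05 to 0.17 in wildtype rats. Vil1, Cdh1 and Krt8 had differences of -0.62, -0.61 and -0.57 in Pirc among DSS-treated rats (4 of 8 were diminished and none, 0, enhanced). The calls of Vil1, Krt8 and Epcam were lost in fits of only the compared groups, and that of Cdh1 held. All 8 fibroblast genes were enhanced by DSS over both genotypes, with Dcn at 3.06 and Col1a1 at 2.36, and their mean centred level ran from -1.36 to -0.58 in untreated rats, -0.40 to 2.18 in DSS-treated wildtype and 0.86 to 2.13 in DSS-treated Pirc rats. In the comparison of Pirc with wildtype rats given DSS, none of the 8 fibroblast genes passed (0 of 8, median difference 0.51). Among 8 leukocyte genes 4 were enhanced by DSS (Ptprc by 1.90, Cd68 by 1.61) and 1 was enhanced in Pirc among DSS-treated rats.

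Genes of stratified squamous and urothelial epithelium, which normal colonic mucosa does not form, rose with DSS. Their median level was highest in DSS-treated Pirc rats, but the 2 DSS-treated groups overlapped. Of 8 such genes 6 were enhanced by DSS over both genotypes, including the basal keratins Krt14 (4.43) and Krt5 (3.66). Among DSS-treated rats 3 were enhanced in Pirc (median difference 2.02), and Krt14 and Krt5 were not among them. Krt13 was, but its call was lost in 11 of the 16 fits without 1 rat. For the difference between the DSS effects none of the 8 passed (0 of 8). Their mean centred level was -1.64 to -1.07 in untreated rats, 1.45 to 3.03 in DSS-treated Pirc rats and, in DSS-treated wildtype rats 14, 18, 22 and 26, 0.03, 0.70, 2.08 and -1.32. The part of these cell types in the differences of Cd44, Ascl2, Axin2 and Myc was not tested.

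Of 24 other Wnt target genes listed, 18 were measured and 13 were well above background on all arrays. In Pirc over wildtype rats given DSS, 2 of the 18 were enhanced (Mmp7 and Dkk1) and none (0) diminished, with a median difference of 0.15. The Dkk1 call (adjusted p = 0.049) was lost in 13 of the 16 fits without 1 rat and under 6 other settings. With DSS over both genotypes 7 were enhanced and 2 diminished, with a median of 0.18 against 0.06 over all probes. Mmp7, the matrix protease matrilysin, changed most, by 4.26 with DSS (SE 0.33, adjusted p = 7.18e-06) and by 4.52 in Pirc among DSS-treated rats (adjusted p = 0.000168). Fosl1, a subunit of the AP-1 transcription factor, was enhanced by 3.08 with DSS (adjusted p = 0.003) and by 1.98 in Pirc over both treatments (adjusted p = 0.0392). The second of these Fosl1 calls was lost in 11 of the 16 fits without 1 rat, with normexp, without moderation and without rats 25 and 26. Plaur, the urokinase receptor, was enhanced by 1.35 with DSS (adjusted p = 0.0158), and Bambi, a decoy receptor of the TGF-beta family, was diminished by DSS (-1.67, adjusted p = 0.00106). Lef1 and Dkk1 also passed for DSS, but were well above background on only 7 and 1 of the 16 arrays.

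The other crypt stem and progenitor genes split. Of 17 listed, 15 were measured, and in Pirc over wildtype rats given DSS 2 were enhanced and 3 diminished (median difference -0.08). Hopx, a marker of the reserve stem cell position that is also made by squamous cells, was enhanced there by 2.58 (adjusted p = 0.000362), and Cdca7 by 1.43 (adjusted p = 0.00335). Lgr4, the R-spondin receptor related to Lgr5 and expressed throughout the crypt, was diminished (-1.24, adjusted p = 0.00439). With DSS over both genotypes 4 were enhanced and 2 diminished: Igfbp4, an insulin-like growth factor binding protein, by 3.32 (adjusted p = 2e-05) and Phlda1 by 2.05 (adjusted p = 0.00316) were the largest.

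Of 12 measured proliferation genes, 4 were enhanced in Pirc among DSS-treated rats (median difference 0.82) and 5 over both treatments. Among them were Mcm3, a part of the replicative helicase (1.22, adjusted p = 0.0243), Rrm2, the small subunit of ribonucleotide reductase (1.34, adjusted p = 0.0169), and Tyms, thymidylate synthase (0.83, adjusted p = 0.03). All 3 calls were lost without rat 12, 20 or 22 and in fits of only the compared groups, and those of Mcm3 and Tyms also without rat 14. The mean centred level of the 12 genes was 1.11, 0.34, 1.20 and 0.02 in DSS-treated Pirc rats 12, 16, 20 and 24 and -0.35, -0.19, -0.52 and 0.22 in DSS-treated wildtype rats 14, 18, 22 and 26, so the groups overlapped. Of 9 differentiated colonocyte genes 2 were diminished in the same comparison and none (0) enhanced, with the chloride exchanger Slc26a3 at -2.25 (adjusted p = 0.000932) and Guca2a, the guanylin precursor, at -1.42 (adjusted p = 0.000432). Apc itself was lower in Pirc among DSS-treated rats (-0.82, SE 0.15, adjusted p = 0.0033) and not in untreated rats (0.02, adjusted p = 0.975), and the difference of the DSS effects did not pass (adjusted p = 0.199).

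**Figure D4:**
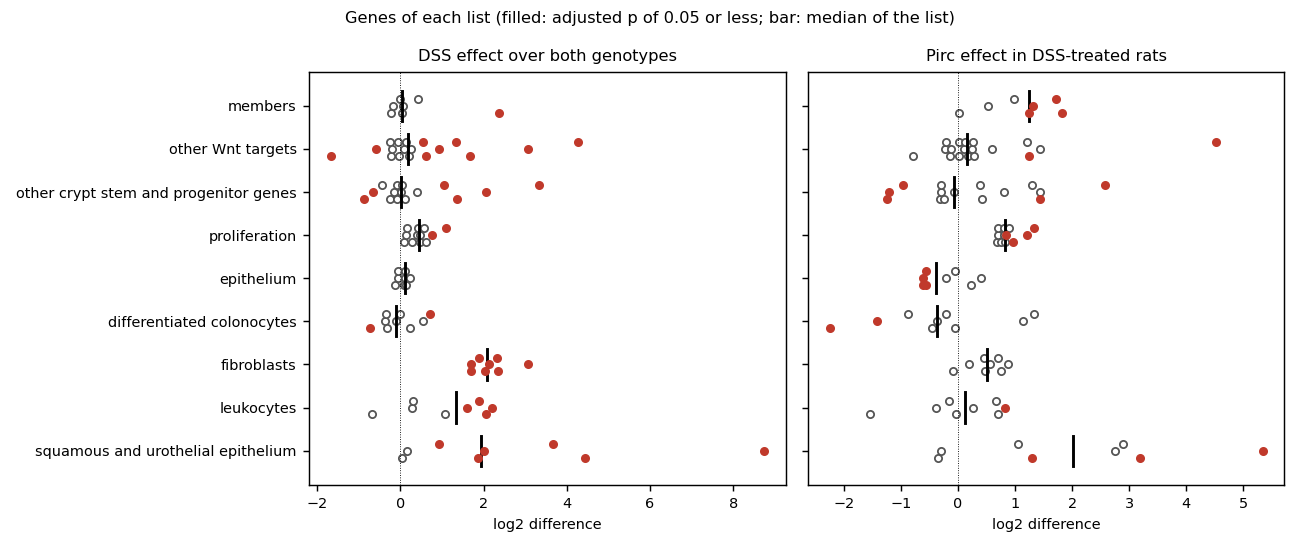
Log2 differences of the genes of 9 lists for DSS over both genotypes (left) and for Pirc among DSS-treated rats (right). Each point is the representative probe of 1 gene, filled where the adjusted p was 0.05 or less, and the black bar is the median of the list. In the right panel the 7 measured stem cell and Wnt target genes had a median of 1.24, the other Wnt targets 0.15 and the epithelial genes -0.38.

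Likeness to each gene was described as the correlation of its deviations from the group means over the 16 rats with those of other probes. These were about 12155 probes of other named genes, well above background on all 16 arrays. No test was made, since rats of 1 slide and depth share these deviations. The genes most like Axin2 were Hs2st1 (r = 0.93), Enc1 (0.88) and the replication gene Mcm2 (0.87), and those most like Ascl2 were Hnrnpa3 (0.92), Steap2 (0.91) and Nphp4 (0.89). Axin2 and Ascl2 had r = 0.70 with each other. Most like Myc were G3bp1 (0.86), Polr3e (0.85) and Skp2 (0.83), and most like the brighter Lgr5 probe were Tph1, the serotonin synthesis enzyme of enteroendocrine cells (0.91), and Col6a2 (0.90). Cd44 was most like Kcnn3 (0.89) and Smoc2 most like Sccpdh (0.88). For the brighter Lgr5 probe r was -0.44 with Myc, -0.28 with Axin2 and with Ascl2, 0.14 with Smoc2 and 0.43 with Cd44, while Cd44 and Smoc2 had r = 0.59.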

How the data were processed

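Total RNA of normal distal colon from 16 rats was labelled with Cy3, 1 array per rat. The authors deposited the scanner output of Agilent Feature Extraction 10.7.3.1, in which each spot has an intensity with the background already subtracted, and no scaling across arrays; the submitters' processing notes name Partek. The 4259 control spots of each 62976 were left out, outlier-flagged spots were dropped (25 probe values with every spot flagged kept them), and spots of a probe were averaged after log2 transformation and subtraction of the array's own log2 75th percentile. That percentile ranged from 875 to 2194, 71.1% to 80.3% of spots were well above background and none (0) was saturated; the number of arrays limits the precision. Probes were named through the RefSeq gene table of GRCr8: 18006 probes matched 15159 symbols and 12361 matched none.

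The group means were fitted over all 16 arrays with lmFit and eBayes of limma 3.58.1 under R 4.3.3, and 7 contrasts were taken, with Benjamini-Hochberg adjustment over 30367 probes, and the script was tested on simulated data. Genes named are the 10 members and, from each list, those past the threshold for DSS or for Pirc over both levels of the other factor, largest first, up to 4 a list and up to 6 for the lists of other Wnt targets and of other crypt genes; Vil1, Apc and the squamous genes serve the checks. Genes dim in the untreated groups are named without a value. The members and lists were chosen with earlier results of these data known. Alternatives were quantile normalization, normexp (offset 50, on the median signal, as no mean signal was used), a filter on dim probes, slide or array row as a block, outlier-flagged spots kept, no moderation, only the compared groups, a 2-fold minimum, probes of a gene averaged and each rat left out. Counting any probe of a gene, leaving out rats 25 and 26 together, and the 4 sets of slide and row as a block were chosen after seeing the data.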

Additional observations from a re-analysis of the deposited data

Results flagged for a closer look

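In 1 of the 48 groups of 4 rats examined over the 12 probes, 1 rat stood apart by Dixon's criterion: DSS-treated wildtype rat 14 at -6.55 for the Cd44 probe A_64_P280765, where the other rats of the group lay between -6.08 and -6.02. Chance gives about 1 in 20 groups, or 2.4 of 48.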

How the results depend on the processing

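Of the 7 counts of member genes past the threshold, those for DSS over both genotypes (1 gene), for Pirc in untreated rats (0) and for the difference between the DSS effects (0) moved under no setting tried. The count for DSS in Pirc rats fell from 2 to 1 with quantile normalization, array row as a block, slide and row together as a block, only the compared groups or a 2-fold minimum, and was 1 to 2 with each rat left out. That for DSS in wildtype rats rose from 1 to 2 with probes averaged or any probe counted, and was 1 to 2 with each rat left out (2 without DSS-treated wildtype rat 26). That for Pirc over both treatments fell from 5 to 3 without moderation or with slide and row together as a block, rose to 6 with any probe counted, fell to 2 with a 2-fold minimum, and was 3 to 5 with each rat left out. That for Pirc in DSS-treated rats was 5 with probes averaged or any probe counted, and 4 to 5 with each rat left out. With each rat left out, the Ascl2 call over both treatments (0.77 to 1.11) held without rat 23, 24, 25 or 26 only, that of Smoc2 (0.38 to 0.52) without rat 11, 24 or 25 only, and that of Axin2 for DSS in Pirc rats (0.45 to 0.66) without rat 16, 19 or 26 only. The dimmer Lgr5 probe lost its call for DSS in wildtype rats (-2.25 to -1.83) without rat 14, 17, 18, 21 or 25, and over both treatments (0.84 to 1.20) without rat 13, 14, 15, 18, 19, 20, 21 or 22. Cd44 probe A_64_P130999 lost that for DSS in wildtype rats (1.48 to 2.19) without rat 13, 14, 17, 21, 22 or 25, and A_64_P280765 without rat 18. Both lost it without rats 25 and 26 together (adjusted p = 0.070 and 0.0579). Differences that changed sign were those of the brighter Lgr5 probe for DSS in wildtype rats (-0.23 with quantile normalization, -0.97 with probes averaged, -0.12 to 0.19 with each rat left out) and for Pirc in DSS-treated rats (-0.054 with quantile normalization, -0.11 with normexp, -0.062 without rats 25 and 26, -0.14 to 0.18 with each rat left out). The others were the dimmer Lgr5 probe over both treatments (-0.022 with normexp), Notum for Pirc in DSS-treated rats (-0.032 with normexp), Cd44 probe A_64_P130995 for DSS in wildtype rats (-0.13 with quantile normalization) and, for Pirc in untreated rats, with each rat left out, the dimmer Lgr5 probe (-0.55 to 0.16) and Ascl2 (-0.12 to 0.40). Against the 75th percentile scaling, the median difference of all probes moved with quantile normalization by -0.14 for DSS over both genotypes and in Pirc rats and by -0.15 in wildtype rats, and with normexp by 0.14 for DSS in Pirc rats, by -0.13 for Pirc over both treatments, by -0.17 in untreated rats and by 0.12 for the difference between the DSS effects. The causes were not tested. No paired analysis was possible because every rat number occurs once; the 4 sets of a slide and a row were fitted as a block in its place. Signal over background limits Notum and the dimmer Lgr5 and Cd44 probes. The normexp offset of 50 shrinks the differences of such probes, so their lost calls and changed signs with normexp decide nothing about them.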
